A study of Mus musculus with 4 samples.

Results

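Expression of 10 mesendoderm and primitive streak genes was followed in mouse embryonic stem cells (mESCs): T, Mixl1, Eomes, Gsc, Mesp1, Evx1, Wnt3, Tbx6, Lhx1 and Fgf8, where T is the gene of Brachyury. The genes were chosen by name, and all 10 have a row among the 37620 Ensembl genes of the deposited count table. RNA-seq was made from WT_CTCF and MUT_CTCF mESCs, with 2 libraries per line. Both lines come from CTCF-mAID mESCs, in which the endogenous, tagged CTCF is degraded with auxin and exogenous CTCF is expressed from a vector. WT_CTCF mESCs carry wild-type CTCF, and MUT_CTCF mESCs carry CTCF mutated at T668, the site of O-GlcNAcylation, a single-sugar modification that the transferase OGT adds. Both lines are clones picked for a CTCF level near that of the endogenous protein, so a difference between the clones and an effect of the mutation cannot be told apart. The cells were cultured with serum and LIF, a cytokine that keeps mESCs undifferentiated, and no differentiation was induced.

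The primitive streak is the site in the gastrulating mouse embryo where epiblast cells leave the epithelium to form mesoderm and endoderm. Wnt3 and Nodal signals, with BMP4, induce the streak, and T, Mixl1, Eomes and Gsc are among the first transcription factors switched on in it. In mESC cultures with serum and LIF, a small share of cells is known to express streak genes, so these genes are used to see whether cells drift towards mesendoderm. In bulk RNA, a low level in every cell and a high level in few cells cannot be told apart, nor can fewer cells of a type and less RNA per cell.

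The libraries held between 40524694 and 40977464 counts. The 10 pluripotent cell markers checked, among them Pou5f1 and Nanog, summed to between 7311.9 and 7380.2 CPM (counts scaled to a fixed library total) in the 4 libraries, against between 23.3 and 26.9 CPM for the 10 streak genes. Genes listed as markers of other cells were also read. The fibroblast list summed to between 307.8 and 324.6 CPM and the neural ectoderm list to between 361.7 and 401.5 CPM. Sums lay between 86.1 and 92.7 CPM for primitive endoderm, 189.6 and 197.4 CPM for trophectoderm and 768.1 and 783.7 CPM for germ cells. Most of the fibroblast sum came from Vim (10569 to 11127 counts per library). Tubb3 (12061 to 13741 counts) made most of the neural ectoderm sum, and Kit (22222 to 22954 counts) most of the germ cell sum. Col4a1 (2816 to 3007 counts) made most of the primitive endoderm sum. Tfap2c (3578 to 3922 counts) and Esx1 (1912 to 2249 counts) together made most of the trophectoderm sum, a list that also holds Eomes. These sums therefore do not show that other cell types were present. Lum of the fibroblast list and Six3 of the neural list had 0 counts in all libraries. The neural ectoderm sum was lower in both MUT_CTCF libraries mainly through Tubb3. The mean of Tubb3 fell from 13749 in WT_CTCF to 12082.1 normalized counts (scaled to the mean library) in MUT_CTCF mESCs. Nes, also of this list, rose from 2575 to 2772.8. Of the 4 tested genes of the list, 2 had negative and 2 positive log2 fold changes. The part of this fall in the results was not tested.

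No streak gene passed the test for a difference between the lines. Of the 10 genes, 9 had enough counts to be tested, and 0 of these 9 were called at an adjusted p under 0.05, where 3.17% of the 16264 tested genes were called. The criterion that joins an unadjusted p under 0.05 to a more than 2-fold difference gave 0 of 9 as well, against 1.3% of all tested genes. The smallest unadjusted p of the 9 was 0.17, by the quasi-likelihood test of edgeR. MUT_CTCF over WT_CTCF log2 fold changes were negative for 6 genes and positive for 3, with a median of -0.14, and the median over all tested genes was 0.0034. Both MUT_CTCF libraries lay below both WT_CTCF libraries for 3 of the 9 (T, Wnt3 and Fgf8) and above them for 0, while 22.3% of all tested genes were separated in each direction. With 9 genes, these shares are not set apart from the background. edgeR's exact test also gave 0 calls at an adjusted p under 0.05. DESeq2 left the adjusted p of all 9 genes undefined, so it could make no call there, and its smallest unadjusted p among them was 0.308. All 4 libraries were used, and since permuting 2 against 2 libraries exactly gives no p under 0.333, the tests rest on the spread that edgeR estimates over all genes. Nothing in the labels says whether the libraries of a line came from separate cultures, although the methods call them biological replicates.

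In level per exon length, Gsc was the highest of the genes in every library, and Lhx1 had the lowest mean. TPM, counts divided by exon length and scaled to a fixed total, is used for this order because a long gene collects more reads. Gsc lay between 13.3 and 17.8 TPM, T between 6.45 and 6.70, Mixl1 between 3.53 and 5.54 and Eomes between 3.38 and 4.28. The other 6 genes stayed at or below 1.59 TPM in every library. Of neighbours in the order of means, ranges over the 4 libraries did not overlap between Gsc and T, T and Mixl1, Eomes and Wnt3, or Evx1 and Lhx1. Mixl1 and Eomes overlapped, and so did each neighbour in the order Wnt3, Mesp1, Tbx6, Fgf8 and Evx1, so these neighbours cannot be ranked. Beyond neighbours, Wnt3 (lowest value 0.923 TPM) lay above Fgf8 (highest value 0.837 TPM) and Evx1 (highest value 0.442 TPM) in every library. The range of Mesp1 also overlapped that of Lhx1, because in WT_CTCF replicate 1 Mesp1 was at 0.0517 TPM and Lhx1 at 0.112 TPM. Gsc was above 69.7% of the 22337 protein-coding genes in mean TPM, and Lhx1 was above 25.8%. For scale, Pou5f1 lay between 920.6 and 967.1 TPM.

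**Figure D1:**
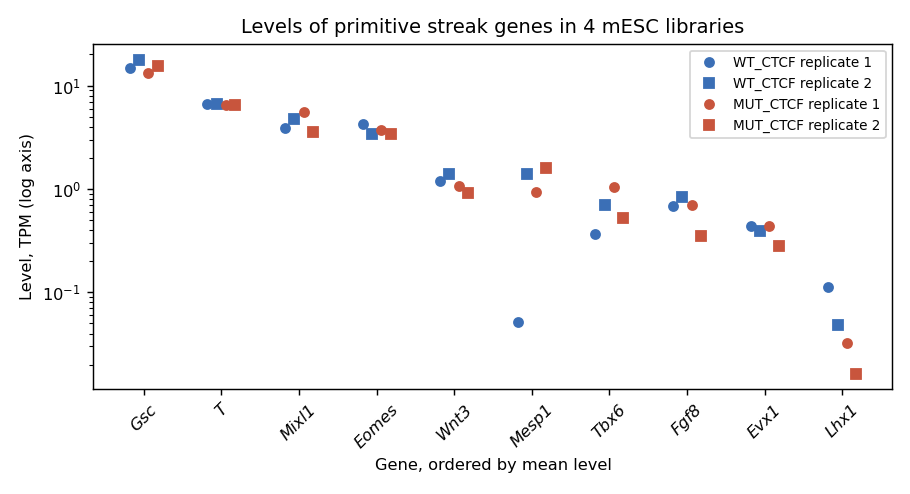
Level of the 10 streak genes in TPM on a log axis, 1 point per library, ordered by mean level. Gsc lies between 13.3 and 17.8 TPM in all libraries and T between 6.45 and 6.70, while Mesp1 is at 0.0517 TPM in WT_CTCF replicate 1 and between 0.944 and 1.59 in the others.

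T, Eomes and Tbx6 encode T-box transcription factors. T drives mesoderm formation and Eomes acts in the streak towards definitive endoderm and cardiac mesoderm, while Tbx6 specifies paraxial mesoderm. T (chromosome 17 of mm9, 8627288 to 8635361) had 231 and 233 counts in WT_CTCF and 223 and 222 in MUT_CTCF mESCs. All 4 values lay close together, with the MUT_CTCF pair just below the WT_CTCF pair. In normalized counts, scaled to the mean library, the WT_CTCF mean of T was 232.5 ± 1.54 and its MUT_CTCF mean 222.1 ± 1.41 (SD, n = 2 each). The log2 fold change of T was -0.066 (standard error 0.167, adjusted p = 0.911, edgeR's quasi-likelihood test), with a 95% interval from -0.40 to 0.27. That interval spans folds from 0.757 to 1.21, and T had the narrowest range of fold changes when each library was left out, from -0.074 to -0.059.

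Eomes (chromosome 9, 118387330 to 118395250) had 270 and 212 counts in WT_CTCF and 230 and 208 in MUT_CTCF mESCs. The groups overlapped, and the WT_CTCF libraries stood further apart than the lines did. Its log2 fold change was -0.14 (standard error 0.17, 95% interval from -0.48 to 0.20, adjusted p = 0.774, edgeR's quasi-likelihood test), and it turned to 0.040 without WT_CTCF replicate 1. Tbx6 (chromosome 7, 133924997 to 133929074) had 10 and 19 counts in WT_CTCF and 28 and 14 in MUT_CTCF mESCs. A single MUT_CTCF library held the highest count, and the other lay inside the WT_CTCF range. Its log2 fold change of 0.52 had an interval from -0.81 to 1.85 (adjusted p = 0.796, same test) and was -0.046 without MUT_CTCF replicate 1.

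Of 14 other T-box genes listed, 11 were tested and 0 were called, near the 3.17% of all tested genes, with 6 positive and 5 negative log2 fold changes and a median of 0.076. Tbx3, a T-box factor that mESCs use in self-renewal, was by far the most abundant, between 226.5 and 237.0 TPM, and had a log2 fold change of -0.037 (95% interval from -0.094 to 0.021). Tbr1, expressed in cortical neurons, and Tbx15 had the smallest p of the list, with log2 fold changes of 0.98 and -0.69 (adjusted p = 0.593 and 0.594, edgeR's quasi-likelihood test). Tbr1 rested on 6 and 13 counts in WT_CTCF and 25 and 13 in MUT_CTCF mESCs. Tbx19 and Tbx22 had 0 counts in all libraries, which allows up to 3 counts in each, or at most 0.0740 CPM, by counting error alone.

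Mixl1, Gsc, Evx1 and Lhx1 encode homeodomain factors. Mixl1 acts in the streak on mesoderm and endoderm formation, Gsc marks the anterior streak and organizer, Evx1 the posterior streak, and Lhx1 is needed in the anterior mesendoderm and for head formation. Gsc (chromosome 12, 105709419 to 105711537) had 285 and 339 counts in WT_CTCF and 252 and 289 in MUT_CTCF mESCs. MUT_CTCF replicate 2 lay above WT_CTCF replicate 1, so the groups overlapped. From 312.6 ± 38.4 to 270.1 ± 28.7 normalized counts (SD, n = 2), its log2 fold change was -0.21 (standard error 0.152, 95% interval from -0.51 to 0.093, adjusted p = 0.566, edgeR's quasi-likelihood test). This was the smallest p of the 9 genes. The sign of Gsc held with each library left out, between -0.33 and -0.081.

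Mixl1 (chromosome 1, 182623174 to 182627165) had 137 and 162 counts in WT_CTCF mESCs. The MUT_CTCF libraries had 190 and 120, the highest and the lowest of the 4. The log2 fold change of 0.045 thus had an interval from -0.39 to 0.48 (adjusted p = 0.958, edgeR's quasi-likelihood test) and ran from -0.31 to 0.33 with each library left out. Evx1 (chromosome 6, 52263492 to 52268372) had 19 and 17 counts in WT_CTCF and 19 and 12 in MUT_CTCF mESCs, with overlapping groups and a log2 fold change of -0.22 (95% interval from -1.56 to 1.12, adjusted p = 0.928, same test). It turned to 0.061 without MUT_CTCF replicate 2. Evx1 shares 73 exon bases with 5730457N03Rik on the opposite strand, and the strand setting of the counting is not given in the sources used here, so reads there cannot be assigned to either gene. Lhx1 (chromosome 11, 84331479 to 84338923) had 7 and 3 counts in WT_CTCF and 2 and 1 in MUT_CTCF mESCs, too few to be tested. The ratio of these counts after scaling was 0.299, with an exact 95% interval from 0.0528 to 1.16. That interval covers counting error only and includes a ratio of 1, so a difference was not detected at this depth.

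Mesp1 encodes a basic helix-loop-helix factor that marks nascent and cardiac mesoderm. Mesp1 (chromosome 7, 86937127 to 86938674) had 1 and 27 counts in WT_CTCF and 18 and 30 in MUT_CTCF mESCs. The spread lay inside the WT_CTCF line, where replicate 1 held a single read and replicate 2 came near the highest MUT_CTCF library. The log2 fold change was 0.77 (standard error 0.707, 95% interval from -0.65 to 2.18, adjusted p = 0.683, edgeR's quasi-likelihood test), and it was -0.17 without WT_CTCF replicate 1. Against WT_CTCF replicate 2 alone the ratio of MUT_CTCF to WT_CTCF counts was 0.885, with an exact interval from 0.541 to 1.48. Against replicate 1 alone it was 23.9, with an interval from 4.09 to 964, and both intervals cover counting error only. So the direction of Mesp1 was set by which WT_CTCF library was used. Its paralog Mesp2, 16939 bases away, had 127 and 107 counts in WT_CTCF and 143 and 139 in MUT_CTCF mESCs. Mesp2 did not pass (log2 fold change 0.26, adjusted p = 0.662, same test) and did not share the low value of WT_CTCF replicate 1.

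Wnt3 and Fgf8 encode secreted signals. Wnt3 is the WNT ligand required to form the streak, and Fgf8 is needed for cells to migrate away from it. Wnt3 (chromosome 11, 103635464 to 103679271) had 56 and 65 counts in WT_CTCF and 49 and 42 in MUT_CTCF mESCs. Both MUT_CTCF libraries were below both WT_CTCF libraries. From 60.6 ± 6.41 to 45.4 ± 4.51 normalized counts (SD, n = 2), its log2 fold change was -0.42 (standard error 0.374, 95% interval from -1.16 to 0.33, adjusted p = 0.673, edgeR's quasi-likelihood test). Its sign held with each library left out, between -0.52 and -0.31. Fgf8 (chromosome 19, 45811288 to 45817405) had 14 and 17 counts in WT_CTCF and 14 and 7 in MUT_CTCF mESCs, with a log2 fold change of -0.56 (95% interval from -2.06 to 0.93, adjusted p = 0.805, same test). Its groups were separated by less than 1 read after scaling, 13.9 against 14.0 normalized counts, and leaving out MUT_CTCF replicate 2 moved its log2 fold change to -0.16.

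How large a change each gene could have hidden followed its counts. The 4 genes with over 100 counts in every library (T, Mixl1, Eomes and Gsc) had 95% intervals within a fold change of 2 in both directions. None of the other 5 tested genes did, and their 4 libraries all held under 100 counts per gene. On the log2 scale Fgf8 had the widest interval, with folds from 0.240 to 1.91, followed by Mesp1, from 0.638 to 4.55.

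**Figure D2:**
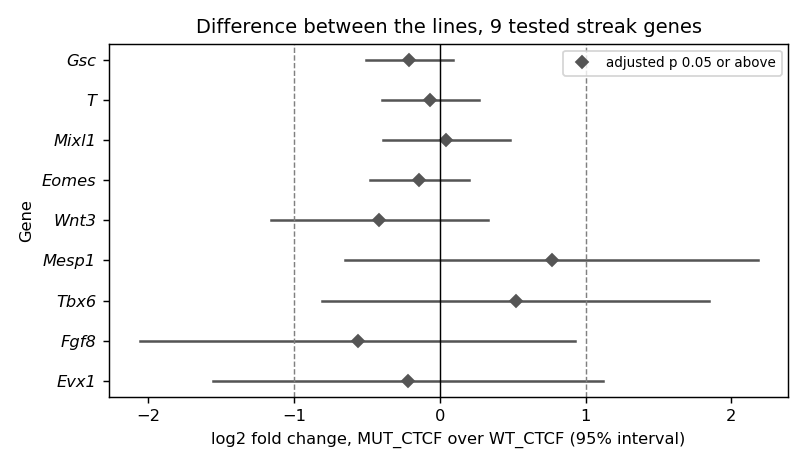
Log2 fold change of MUT_CTCF over WT_CTCF for the 9 tested streak genes, ordered by level, with 95% intervals from edgeR's quasi-likelihood fit as bars and a fold change of 2 in either direction as dashed lines. Every interval crosses 0, and only those of Gsc, T, Mixl1 and Eomes stay between the dashed lines.

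**Figure D3:**
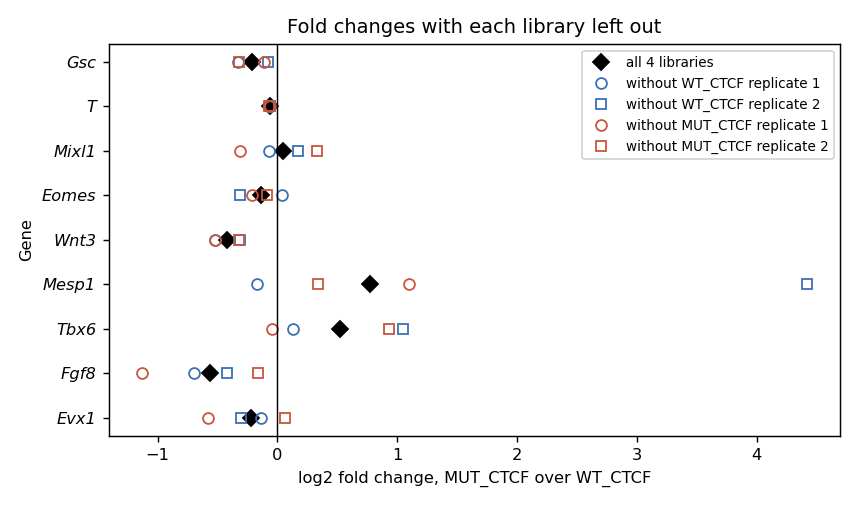
Log2 fold change of the same 9 genes with all 4 libraries (filled) and with each library left out in turn (open). T stays between -0.074 and -0.059, whereas Mesp1 runs from -0.17 to 4.42, the last value resting on a single WT_CTCF read.

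Among the signals that induce the streak, Nodal alone passed the test. Of 38 listed ligands, receptors and mediators, 35 were tested, 18 had positive and 17 negative log2 fold changes, and the median was 0.0041. Nodal, the TGF-beta family ligand that patterns the streak, was the 1 gene called lower, against 1.61% of all tested genes, and 0 were called higher, against 1.56% of all tested genes. It had 5977 and 6048 counts in WT_CTCF and 5151 and 5558 in MUT_CTCF mESCs, with no overlap. On the log2 scale Nodal fell by 0.17 (standard error 0.0424, 95% interval from -0.26 to -0.087, adjusted p = 0.0109, edgeR's quasi-likelihood test). This call was lost with any 1 of the 4 libraries left out, where the log2 fold change ran from -0.24 to -0.11. It was also lost when low-count genes were kept (adjusted p = 0.295, same test), although the sign held. Fewer genes were called over the whole table in all of these runs, so the losses are not particular to Nodal. Several genes that did not pass had larger log2 fold changes than Nodal, among them Smad1, a mediator of BMP signals (0.23, adjusted p = 0.106, same test), and Tcf7l2, a TCF/LEF factor (-0.28, adjusted p = 0.179). The Nodal co-receptor gene Tdgf1 (0.0093) and the nuclear partner of its SMADs, Foxh1 (-0.13) did not pass. Neither did Bmp4 (-0.20), Ctnnb1 of beta-catenin (-0.0076), Fgf4 (0.014) or the streak ligands Wnt3a (0.53) and Wnt8a (0.19), of which the last 2 rested on 10 to 54 counts.

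Of 22 feedback inhibitors and direct targets of these signals, 21 were tested, and 5 of them were called lower and 0 higher, where 1.61% of all tested genes were called lower and 1.56% higher. The log2 fold change was negative for 16 of the 21, with a median of -0.11, and for 7997 of all 16264 tested genes, with a median of 0.0034. The list was written with the fall of Dkk1 already known, so its count is not independent evidence of its direction, and no test of the list was made. Sp5, a direct WNT target that acts with T in the streak, had 2554 and 2383 counts in WT_CTCF and 1835 and 2080 in MUT_CTCF mESCs. All MUT_CTCF values of Sp5 were lower, and on the log2 scale it fell by 0.34 (standard error 0.0632, adjusted p = 0.000335, edgeR's quasi-likelihood test). Axin2, a WNT feedback inhibitor, had 4115 and 4439 counts in WT_CTCF and 3633 and 3756 in MUT_CTCF mESCs. It fell by 0.22 (standard error 0.0481, adjusted p = 0.00397, same test). Notum, which inactivates WNT ligands, fell by 0.31, from 1092 and 959 counts to 835 and 828 (standard error 0.0891, adjusted p = 0.0386, same test). The call of Notum was lost in DESeq2 (adjusted p = 0.148), under scaling by library size alone (adjusted p = 0.0626) and without WT_CTCF replicate 1 (adjusted p = 0.491).

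Dkk1, a secreted WNT inhibitor expressed in the anterior mesendoderm, had the largest fall of the list, by 0.72 on the log2 scale, from 220 and 252 counts to 155 and 133 (standard error 0.187, adjusted p = 0.0183, edgeR's quasi-likelihood test). Spry2, a feedback inhibitor of FGF signalling, had 2314 and 2496 counts in WT_CTCF and 2023 and 2062 in MUT_CTCF mESCs. Its log2 value fell by 0.24 (standard error 0.0605, adjusted p = 0.0130, same test). Axin2 and Notum share exon bases with genes on the opposite strand. None of the 5 passed when low-count genes were kept (adjusted p from 0.212 to 0.321), and none passed without MUT_CTCF replicate 1 or without MUT_CTCF replicate 2, where the whole table had 0 calls. Without WT_CTCF replicate 2, Axin2 (adjusted p = 0.213), Spry2 (0.268) and Dkk1 (0.178) also lost their calls, and DESeq2 gave Dkk1 no adjusted p. The sign of all 5 held in every alternative run. The Nodal inhibitors Lefty1 (-0.076) and Lefty2 (-0.075) did not pass, nor did the BMP targets Id1 (-0.19), Id2 (-0.37) and Id3 (-0.28). Cer1, a Nodal and WNT inhibitor, had 0 counts in all 4 libraries.

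**Figure D4:**
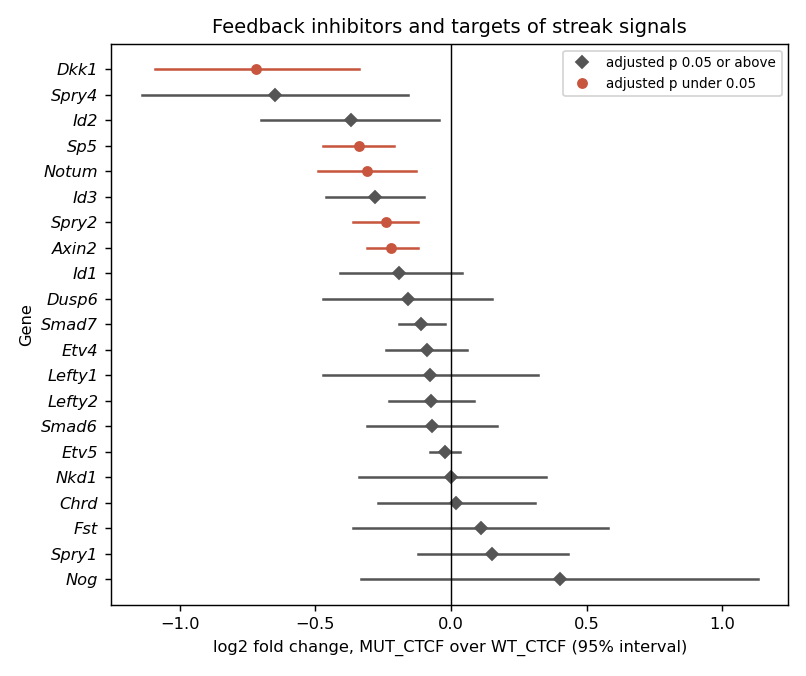
Log2 fold change of MUT_CTCF over WT_CTCF for the 21 tested feedback inhibitors and targets of streak signals, sorted by value, with 95% intervals from edgeR's quasi-likelihood fit. The 5 genes called at an adjusted p under 0.05 (Dkk1, Sp5, Notum, Spry2 and Axin2) all lie below 0, between -0.72 and -0.22.

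T, Sp5 and Axin2 are textbook targets of beta-catenin with the TCF/LEF factors, so promoters of the streak genes and of genes named from the lists were searched for the TCF/LEF letters CTTTGAA and CTTTGAT on both strands. RefSeq promoters (GRCm38.p6, 250 bases before to 50 after a gene's start) matched 8 of the 10 streak genes, and Mixl1 and Fgf8 were not matched. Of the genes called in the signalling, feedback and chromatin lists, Notum and Kdm6b were not matched either and were not searched. Of all 32851 promoters of this length, 8.65% hold either form. Among the streak genes, T and Mesp1 hold one, and among the genes called lower Sp5 and Dkk1 do. Tbr1 and Msgn1, named from the lists without a call, also do. Nodal, Axin2, Spry2 and Eed, all called, hold neither form, nor do the other matched streak genes. No result was made for Gata6, Sox17, Foxc2 and Tbx15, which were named without a call. T, Mesp1, Sp5 and Dkk1 are shown to set 2 genes that did not pass beside 2 that fell. The sequences run 5′ to 3′ on the gene's strand, with the TCF/LEF letters in capitals. The windows are chr17:8434173-8434472 (plus strand) for T, chr7:79793541-79793840 (minus strand) for Mesp1, chr2:70474673-70474972 (plus strand) for Sp5 and chr19:30549447-30549746 (minus strand) for Dkk1.
T: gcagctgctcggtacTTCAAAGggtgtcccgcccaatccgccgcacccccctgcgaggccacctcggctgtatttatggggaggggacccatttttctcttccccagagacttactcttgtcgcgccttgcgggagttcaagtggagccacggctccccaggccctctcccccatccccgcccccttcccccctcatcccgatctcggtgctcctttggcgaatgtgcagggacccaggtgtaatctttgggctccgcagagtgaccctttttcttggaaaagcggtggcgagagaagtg
Mesp1: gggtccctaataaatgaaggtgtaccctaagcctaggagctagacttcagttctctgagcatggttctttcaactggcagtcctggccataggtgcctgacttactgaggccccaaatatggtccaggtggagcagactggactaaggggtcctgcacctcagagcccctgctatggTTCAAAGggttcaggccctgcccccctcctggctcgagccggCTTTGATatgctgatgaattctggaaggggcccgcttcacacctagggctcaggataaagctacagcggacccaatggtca
Sp5: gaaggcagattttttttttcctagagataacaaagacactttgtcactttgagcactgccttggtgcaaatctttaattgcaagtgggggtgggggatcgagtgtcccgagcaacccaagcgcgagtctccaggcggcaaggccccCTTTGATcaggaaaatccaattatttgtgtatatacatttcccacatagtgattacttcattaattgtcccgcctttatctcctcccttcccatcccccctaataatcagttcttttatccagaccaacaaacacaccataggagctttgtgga
Dkk1: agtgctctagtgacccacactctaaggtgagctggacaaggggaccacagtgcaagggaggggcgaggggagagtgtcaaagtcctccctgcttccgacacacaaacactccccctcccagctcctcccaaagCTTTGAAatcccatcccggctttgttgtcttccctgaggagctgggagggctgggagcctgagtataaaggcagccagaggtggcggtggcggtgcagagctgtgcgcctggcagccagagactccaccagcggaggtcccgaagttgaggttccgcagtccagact
The leftmost motif base lies at position -235 from the start in T, at -73 and -31 in Mesp1, at -104 in Sp5 and at -117 in Dkk1. The T-box letters TCACACCT, in 1.28% of all promoters, occur in Mesp1 at position 6 and in none of the other 7 matched streak genes. The FOXH1 letters AATCCACA, in 0.855% of all promoters, occur in none of the 8. The motifs do not overlap each other in these windows, and a match describes letters only.

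Genes that act after the streak were not called, again against 3.17% of all tested genes. Of 20 mesoderm genes 15 were tested, with 10 positive and 5 negative log2 fold changes and a median of 0.070. Msgn1, a regulator of presomitic mesoderm, and Foxc2, a forkhead factor of mesoderm, had the smallest p, with log2 fold changes of -1.92 and 1.06 (adjusted p = 0.327 and 0.393, edgeR's quasi-likelihood test). Msgn1 had 13 and 14 counts in WT_CTCF and 7 and 0 in MUT_CTCF mESCs, and it met the unadjusted criterion with a fold change above 2. Of 11 definitive endoderm and node genes, 9 were tested, 6 with a positive log2 fold change and a median of 0.12. Gata6, an endoderm factor that also marks primitive endoderm, had 57 and 50 counts in WT_CTCF and 99 and 108 in MUT_CTCF mESCs (log2 fold change 0.95, adjusted p = 0.0733, same test), and Sox17, an endoderm factor, 57 and 46 against 66 and 108 (0.75, adjusted p = 0.259, same test). Foxa2, which lies downstream of Eomes, had at most 7 counts per library and was not tested.

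Among 13 chromatin regulators of developmental genes, Kdm6b, an H3K27 demethylase that acts on T in differentiating mESCs, rose by 0.17 on the log2 scale, from 4930 and 5169 to 5815 and 5582 counts (standard error 0.0422, adjusted p = 0.0126, edgeR's quasi-likelihood test). Eed, a subunit of the Polycomb complex that methylates H3K27, fell by 0.16, from 5381 and 5133 to 4824 and 4653 counts (standard error 0.0433, adjusted p = 0.0304, same test). Both calls were lost without a filter (adjusted p = 0.241 and 0.269). Leaving out WT_CTCF replicate 1 or either MUT_CTCF library ended that of Kdm6b, with log2 fold changes from 0.13 to 0.19. Leaving out any library ended that of Eed, with log2 fold changes from -0.19 to -0.12. The call of Eed was also lost in DESeq2 (adjusted p = 0.0673) and under scaling by library size alone (adjusted p = 0.0594). Without a filter or with a library left out, fewer genes were called over the whole table, so those losses are not particular to Kdm6b and Eed. Kdm6b shares 286 exon bases with 1700064E03Rik on the opposite strand. The other 11 were not called. Thus 1 of the 13 was called higher and 1 lower, where 1.56% of all tested genes were called higher and 1.61% lower. No test of this list was made.

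Because CTCF insulates neighbouring genes, the nearest protein-coding gene on each side of every streak gene was read from the same fit. Of these 20 neighbours 16 were tested, 11 had a negative log2 fold change, and the median was -0.052. None was called, where 3.17% of all tested genes were, so a count of 0 among 16 does not set the neighbours apart. Golga4, which lies 20143 bases from Eomes, had the smallest adjusted p (log2 fold change -0.24, adjusted p = 0.117, edgeR's quasi-likelihood test). Sft2d1, next to T and sharing 515 exon bases with T2 on the same strand, followed with -0.17 (adjusted p = 0.297). Pde10a, on the other side of T, had 35 and 20 counts in WT_CTCF and 52 and 49 in MUT_CTCF mESCs. It did not pass (log2 fold change 0.87, adjusted p = 0.364, same test) and was picked after its values were seen. The neighbours of Wnt3 were Nsf, with a log2 fold change of 0.013 (95% interval from -0.057 to 0.083), and Wnt9b, with at most 12 counts per library.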

How the data were processed

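RNA-seq of 2 WT_CTCF and 2 MUT_CTCF libraries was analysed. Reads were trimmed (Trim Galore 0.4.4) and mapped by STAR to mm9, and the authors deposited HTSeq 0.9.1 gene counts of unique reads, not normalized. Annotation release and strand setting are not given in the sources used here. The deposited edgeR table, which holds the authors' fold changes and p-values, was not used. GENCODE M1 (NCBIM37, mm9) named 37205 of 37620 genes and gave positions and exon lengths.

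Genes were kept by filterByExpr at its minimum of 10 counts, which left 16264 genes with 99.96% of all reads. After TMM scaling, the libraries were tested with edgeR 4.0.16 (R 4.3.3, glmQLFit and glmQLFTest), with Benjamini-Hochberg adjustment over all tested genes. Intervals of 95% use the fit's 55.9 degrees of freedom. Replicates differed beyond counting error (chi-square per degree of freedom 3.65 and 4.33). The fit was tested on simulated data.

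All streak genes were named. Of each other list, every gene with an adjusted p under 0.05 (at most 6), or else the 2 with the smallest p, was named by rule, as were such neighbours. Further genes given with values, among them pathway components, other T-box genes and neighbours, were picked after their values were seen. Members and lists were chosen with earlier results of these data known. Alternatives were DESeq2 1.42.0 and its size factors, edgeR's exact test, library size only, other filters, a fold change limit of 1.5, each library left out and the replicate number as a block.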

Additional observations from a re-analysis of the deposited data

How the results depend on the processing

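Calls among the streak genes were 0 at an adjusted p under 0.05 in every alternative that could make a call. DESeq2 gave none of the 9 an adjusted p, and without either MUT_CTCF library the whole table had 0 calls, so these alternatives say nothing about stability. Calls were 0 to 1 with each library left out by the criterion of a more than 2-fold difference and unadjusted p under 0.05, the 1 being Mesp1 without WT_CTCF replicate 2. With each library left out, the log2 fold change ran from -0.31 to 0.33 for Mixl1, from -0.31 to 0.040 for Eomes, from -0.17 to 4.42 for Mesp1, from -0.58 to 0.061 for Evx1 and from -0.046 to 1.05 for Tbx6, which all changed sign. The value of 4.42 rests on 1 WT_CTCF read and depends on edgeR's prior count. Mesp1 and Fgf8 could not be fitted with at least 10 reads required in every library.

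Calls over all tested genes at an adjusted p under 0.05 were 515, and 29 without a filter, 286 in DESeq2 and from 0 to 242 with each library left out. At the unadjusted criterion they were 212, 117 with at least 10 reads in every library and 389 with a fold change limit of 1.5. Feedback genes called lower were 5, against 0 without a filter, 3 in DESeq2 and from 0 to 4 with each library left out. The signalling gene called lower, Nodal, was 1 call, against 0 without a filter and 0 to 0 with each library left out. A library left out leaves 1 library in a group, which is assumed to vary like the other group.

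The replicate number as a block gave 698 calls over all tested genes, 6 feedback genes called lower and 0 streak genes. Deviations of same-numbered libraries correlated with r = -0.0192 across 16264 genes. Low-count genes weigh as much as others in this value, and their counting noise can hide a shared deviation. It therefore cannot decide whether same-numbered libraries are paired. Depth limits the 6 streak genes under 100 counts.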

Other observations

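Of 10 trophectoderm markers, all tested, 2 were called lower and 0 higher, where 1.61% of all tested genes were called lower and 1.56% higher. Cdx2, a trophectoderm factor that the posterior embryo also expresses, had 274 and 298 counts in WT_CTCF and 133 and 159 in MUT_CTCF mESCs (log2 fold change -0.97, standard error 0.177, adjusted p = 0.000227, edgeR's quasi-likelihood test), and the keratin gene Krt8 had a log2 fold change of -0.30 (adjusted p = 0.0319, same test). Of 10 pluripotent cell markers, Sox2 was higher (0.095, adjusted p = 0.0358), and Dppa5a (-0.099, adjusted p = 0.0157) and Utf1 (-0.21, adjusted p = 0.00499) were lower. Tubb3 was the 1 of 4 tested neural markers called lower (-0.19, adjusted p = 0.000050). None of 8 germ cell, 7 tested primitive endoderm or 7 tested fibroblast markers was called. These genes were picked for their calls, after their values were seen. Their calls were not followed through the alternative runs. Without a filter, 29 genes were called over the whole table, against 515 in the main fit.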
